A study of Mus musculus with 16 samples.

Results

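Homeobox regulator genes outside the Hox clusters were followed across the chromatin marks of neural stem cells heterozygous for Setd5 and of wild-type neural stem cells. Setd5 codes for a SET-domain protein linked to intellectual disability. The set holds 38 genes of 21887 protein-coding genes in the RefSeq annotation of GRCm38, chosen by name from the LIM (Lhx, Isl, Lmx), NK (Nkx2 and Nkx6), Gsx, sine oculis (Six2, Six3, Six6), Iroquois (Irx), Pitx, Otx, Phox2a, Barhl, Vax and Msx families. All 38 were found, each was read over its annotated span plus 5 kb on each side (its window), and no window overlapped another. In 12 windows there is also part of another protein-coding gene, whose islands count as well. Enriched regions, called islands, came from 13 lists. These were H3K27me3, H3K4me3, H3K27ac, H3K4me1, H3K36me2 and H3K36me3 in Setd5+/- cells and the same 6 marks in wild-type cells, plus V5-tagged SETD5 in wild-type cells. All were mouse cells taken at E14.5 from telencephalic cortex, expanded as neurospheres with bFGF and EGF, and plated on Matrigel before fixation. Each genotype and mark has 1 library, so differences between genotypes are values without a test. How many embryos a culture stands for, how the Setd5 allele was made and how the V5 tag was introduced were not given in the sources used here.

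Homeobox genes encode transcription factors that bind DNA through the homeodomain and give cells of the embryo their regional and subtype identity. In neural progenitors those of other regions or later fates are typically held silent by Polycomb complexes, which write H3K27me3 over broad domains. Promoters that carry H3K27me3 together with H3K4me3, the mark of promoters, are called bivalent and are regarded as silent but poised. H3K27ac marks active promoters and enhancers, H3K4me1 marks enhancers, and H3K36me3 marks the bodies of transcribed genes.

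Islands held between 1019278 and 5093126 reads in a library, and H3K27me3 lists held 1398086 in Setd5+/- and 2297833 in wild-type cells. Library totals were not given in the sources used here, so depth outside islands is unknown. H3K27me3 islands covered 27.9 Mb in Setd5+/- and 35.2 Mb in wild-type cells over the 16 autosomes other than 1, 4 and 15, and on chromosome 1 they covered 7.39 and 3.10 Mb. Islands of the other 5 marks also covered more of chromosome 1 in Setd5+/- than in wild-type cells, and 3 of the 38 genes, Lhx4, Lhx9 and Lmx1a, lie there. None lies on chromosome 4 or 15. Of 10 marker genes of cortical neural stem cells, 9 had H3K4me3 without H3K27me3 and 9 had H3K27ac in each genotype. Emx1 had no H3K27ac island in either. Of 5 markers of the ventral telencephalon, 4 in Setd5+/- and 2 in wild-type cells had H3K4me3 without H3K27me3. Dlx1 had H3K27ac in Setd5+/- cells alone, and Dlx2, Dlx5 and Gad1 had none in either genotype. Of 6 neuron markers, 4 and 2 were in that state, and 1 and 2 had H3K27ac. H3K27ac lay at 1 and 0 of 5 markers of microglia and blood and at 2 and 1 of 5 markers of endothelium and mesenchyme. The part of other cell types in the results below was not tested.

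Polycomb marking was the common state of the homeobox regulators, and it was less common in Setd5+/- cells. A window with H3K27me3 islands and no H3K4me3 island was called H3K27me3-only. Of the 38 genes, 14 were in this state in Setd5+/- and 17 in wild-type cells, against 5.51% and 5.01% of all protein-coding genes. Windows with both marks, called bivalent, numbered 14 in Setd5+/- and 19 in wild-type cells, against 9.49% and 12.0% of all genes. The marks could lie anywhere in the window and need not touch a promoter. At Lmx1a the H3K4me3 island began 114371 bp after the first base of the span in both genotypes. Where islands of both marks had to overlap, bivalent genes numbered 12 and 17. H3K4me3 without H3K27me3, called active here, was found at 9 genes in Setd5+/- and 2 in wild-type cells, against 56.8% and 55.6%. Neither mark was found at 1 gene in Setd5+/- and at 0 in wild-type cells, against 28.2% and 27.3%. H3K27me3 was thus present at 28 of 38 windows in Setd5+/- and 36 of 38 in wild-type cells, against 15.0% and 17.0% of all protein-coding genes. Bivalent counts depended on the island threshold. With the 25% of islands with fewest reads per kb left out of each list, called the stricter threshold below, they were 10 and 9, and H3K27me3-only genes then numbered 18 and 27.

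**Figure D1:**
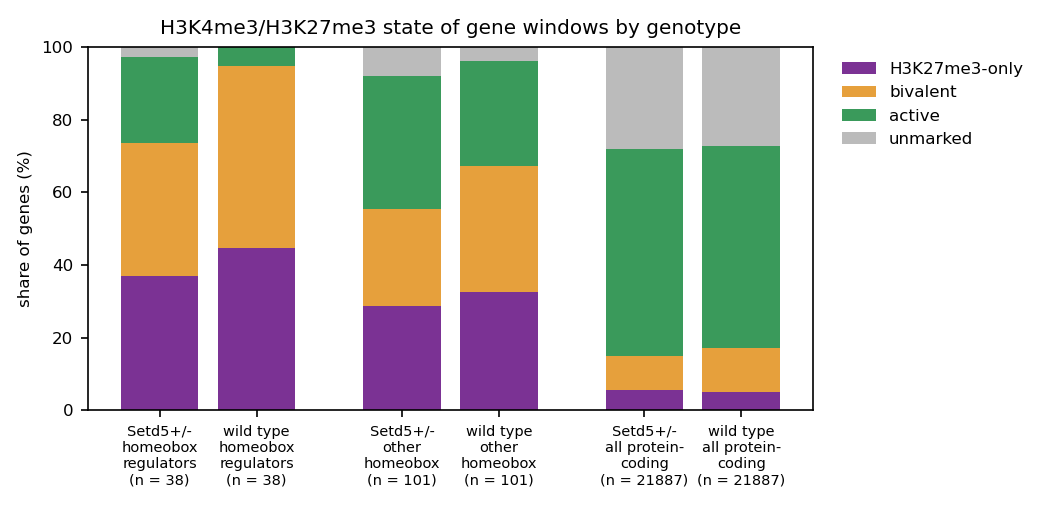
Share of genes (percent, stacked bars) in each of 4 states defined by H3K4me3 and H3K27me3 islands in the gene window, for the 38 homeobox regulators, 101 other homeobox genes and all 21887 protein-coding genes, Setd5+/- left of wild type. The H3K27me3-only and bivalent shares of the 38 genes sum to 28 genes in Setd5+/- and 36 in wild-type cells.

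The state differed between genotypes at 12 of the 38 genes, against 12.1% of all protein-coding genes. All 12 had H3K27me3 in wild-type cells, so the background for them is that of the 3729 genes with the mark there, of which 37.9% differed in state. The 12 of 36 genes do not exceed that share. Isl2, Irx2, Irx3, Irx5 and Irx6 were active in Setd5+/- and bivalent in wild-type cells. Gsx2 and Otx2 were active in Setd5+/- and H3K27me3-only in wild-type cells. Six2 and Irx1 were bivalent in Setd5+/- and H3K27me3-only in wild-type cells, and Irx4 and Barhl2 were H3K27me3-only in Setd5+/- and bivalent in wild-type cells. Nkx6-2 was unmarked in Setd5+/- and H3K27me3-only in wild-type cells. None of the 12 lies on chromosome 1. Unchanged were 12 H3K27me3-only genes (Lhx3, Lhx8, Isl1, Nkx2-1, Nkx2-4, Nkx2-9, Nkx6-1, Six6, Pitx1, Barhl1, Vax1 and Msx2), 12 bivalent genes (Lhx1, Lhx4, Lhx5, Lhx6, Lhx9, Lmx1a, Lmx1b, Gsx1, Six3, Pitx3, Vax2 and Msx1) and the active genes Otx1 and Phox2a. The Phox2a call rests on weak H3K4me3 islands of 27 reads in Setd5+/- and 29 in wild-type cells. They lay near the far end of the gene, and neither mark touched its listed promoter in either genotype.

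H3K27me3 covered less of most windows in Setd5+/- cells. Summed over the 38 windows it covered 370.4 kb in Setd5+/- and 590.0 kb in wild-type cells, a ratio of 0.628, against a ratio of 0.787 over the windows of all genes on the 16 other autosomes. Without the 3 genes on chromosome 1 the sums were 292.2 and 516.6 kb, a ratio of 0.566. The covered length was lower in Setd5+/- cells at 31 genes, equal at 3 (Lhx1, Barhl2 and Msx2) and higher at 2. The 2 were Lmx1a on chromosome 1, a gene of roof plate and midbrain dopaminergic progenitors, with 25.8 kb in Setd5+/- and 18.2 kb in wild-type cells, and Pitx3 of midbrain dopaminergic neurons and the lens, with 1.6 and 1.2 kb. The Pitx3 islands of the 2 genotypes do not overlap. That of Setd5+/- cells (36 reads) lies inside the span and that of wild-type cells (33 reads) outside it. Over all genes on the 16 other autosomes the covered length was lower in Setd5+/- cells at 2016, equal at 79 and higher at 994. The median share of a window covered was 40.0% in Setd5+/- and 79.4% in wild-type cells for the 38 genes. The whole window was covered at 1 gene, Msx2, in Setd5+/- cells and at 10 genes in wild-type cells. Over all genes on the 16 other autosomes these counts were 14 and 61.

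**Figure D2:**
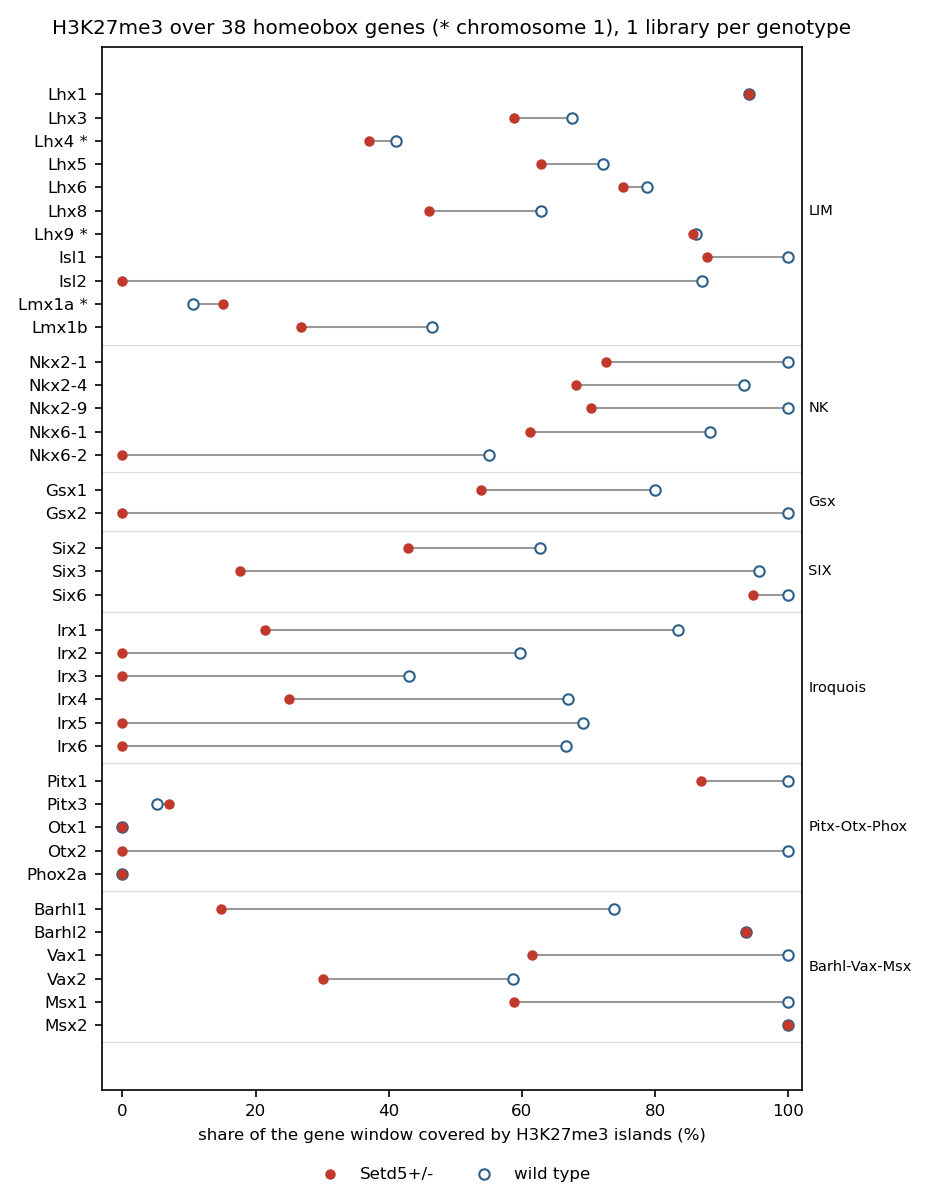
Share of each gene's window (span plus 5 kb on each side) covered by H3K27me3 islands, in percent, for the 38 genes by family, with filled red points for Setd5+/- and open blue points for wild type, 1 library each. Red points lie left of blue ones at 31 genes, and 8 of them lie at 0 while the wild-type point does not.

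H3K27me3 was present in Setd5+/- cells alone at 0 genes, and in wild-type cells alone, called lost here, at 8. Over all protein-coding genes these calls were made at 3.58% and 5.62%. The 8 are 22.2% of the 36 with the mark in wild-type cells, which is not above the share of all such genes, 33.0%, or of those on the 16 other autosomes, 34.9%. The 8 homeobox genes had a median of 67.9% of the window covered in wild-type cells, against 5.23% for the 911 genes of the 16 other autosomes that lost the mark. Wide cover was not particular to the losses. The 28 homeobox regulators that kept the mark had a higher median, 84.8%, against 10.6% for the 1702 genes of the 16 other autosomes that kept it. Of homeobox regulators on the 16 other autosomes with 50% or more of the window covered in wild-type cells, 7 of 30 lost the mark (23.3%). The share was 9.16% over all such genes and 7.41%, or 18 of 243, once the homeobox regulators were left out. Other homeobox genes with 50% or more covered, on any chromosome, lost the mark at 7 of 40 (17.5%). No test between these shares was made. Within a middle range of read density (given with the densities below) the shares were close, at 11.1% and 12.6% of other genes. Outside that range the share of homeobox regulators was higher, on few genes.

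Otx2, a regulator of forebrain and midbrain identity that is also needed for the choroid plexus, had the longest loss. No H3K27me3 island touched its window of 20.9 kb in Setd5+/- cells. In wild-type cells the window lay wholly inside a domain of 42.8 kb on chromosome 14 (48646001 to 48688800) with 3700 reads, or 86.4 reads per kb (83.7 to 89.3, exact Poisson 95% interval, counting error only). The gene had an H3K4me3 island of 2.2 kb with 138 reads, or 62.7 reads per kb (52.7 to 74.1), in Setd5+/- cells and none in wild-type cells. RefSeq lists 4 starts for Otx2, and the island of Setd5+/- cells covered all 300 bases around the third from the 5′ end and none around the other starts. The promoters of the outermost start, which is the end of the annotated span, and of this inner start are shown because they were read differently in the Setd5+/- H3K4me3 list. Each runs from 250 bases before to 50 bases after the start on the minus strand of GRCm38 (RefSeq), at chr14:48667595-48667894 and chr14:48665060-48665359, with CG dinucleotides in capitals.
Otx2, outermost start: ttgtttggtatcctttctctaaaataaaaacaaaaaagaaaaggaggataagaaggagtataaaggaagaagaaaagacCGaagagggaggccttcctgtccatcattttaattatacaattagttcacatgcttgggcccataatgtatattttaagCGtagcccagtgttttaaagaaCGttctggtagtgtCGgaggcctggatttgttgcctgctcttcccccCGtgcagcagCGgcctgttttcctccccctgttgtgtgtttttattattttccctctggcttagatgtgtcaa
Otx2, inner start: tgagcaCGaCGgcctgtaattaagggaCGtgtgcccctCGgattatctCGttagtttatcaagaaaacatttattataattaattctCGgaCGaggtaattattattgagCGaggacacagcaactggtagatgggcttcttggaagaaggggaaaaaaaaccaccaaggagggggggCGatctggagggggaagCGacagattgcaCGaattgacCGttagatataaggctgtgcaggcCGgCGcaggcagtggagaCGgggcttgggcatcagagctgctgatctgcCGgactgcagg
The outermost promoter holds 6 CG and the inner one 16, against a median of 7 over all 32851 promoters of the table. The motif TAATTA, the core bound by many homeodomains and the same on both strands, occurs once in the outermost and 3 times in the inner promoter, and at least once in 5.29% of all promoters.

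Isl2, a LIM gene of motor and sensory neurons, had no H3K27me3 in its window in Setd5+/- cells and 16.5 kb in wild-type cells, from an island of 17.6 kb with 1469 reads (83.5 reads per kb). Its H3K4me3 island had 413 reads over 3 kb in Setd5+/- cells, a density of 138 reads per kb (125 to 152), and 54 reads over 1.6 kb in wild-type cells, a density of 33.8 (25.4 to 44.0). Relative to all genes of the 16 other autosomes this log2 difference of density was 1.99, the largest of the 19 homeobox regulators with H3K4me3 in both genotypes. An H3K27ac island of 2.6 kb with 42 reads was present in Setd5+/- cells alone, and an H3K4me1 island of 2 kb with 39 reads in wild-type cells alone. The H3K27ac island was weak, at 16.2 reads per kb against a median of 22.4 over the Setd5+/- H3K27ac list. It fell out under the stricter threshold. The H3K4me3, H3K27ac and H3K4me1 islands lie inside the gene span, although the window also holds the end of Scaper. The listed promoter, at chr9:55540899-55541198 on the plus strand, with its start 2472 bp inside the span, was covered by H3K27ac in Setd5+/- cells alone, by H3K27me3 in wild-type cells alone and by H3K4me3 in both genotypes, and holds 23 CG (capitals).
Isl2: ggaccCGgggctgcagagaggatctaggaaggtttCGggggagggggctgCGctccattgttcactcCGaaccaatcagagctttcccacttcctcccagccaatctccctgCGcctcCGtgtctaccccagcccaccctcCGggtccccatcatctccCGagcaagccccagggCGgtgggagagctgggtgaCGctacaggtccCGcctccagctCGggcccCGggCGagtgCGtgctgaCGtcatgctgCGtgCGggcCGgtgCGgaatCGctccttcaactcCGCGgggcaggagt

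Gsx2, a determinant of the lateral ganglionic eminence, and Nkx6-2, a gene of ventral progenitors and oligodendrocytes, also had no H3K27me3 island in Setd5+/- cells. In wild-type cells the Gsx2 window was covered over its 12.3 kb by an island of 1937 reads (89.7 reads per kb), the densest of the 8. Setd5+/- cells had 2 H3K4me3 islands near Gsx2, of 45 and 84 reads, but both lay outside the gene. The nearer began 3.8 kb before the first base of the span and the other 6.4 kb after it, and neither covered the promoter (chr5:75075351-75075650, plus strand, 17 CG in capitals).
Gsx2: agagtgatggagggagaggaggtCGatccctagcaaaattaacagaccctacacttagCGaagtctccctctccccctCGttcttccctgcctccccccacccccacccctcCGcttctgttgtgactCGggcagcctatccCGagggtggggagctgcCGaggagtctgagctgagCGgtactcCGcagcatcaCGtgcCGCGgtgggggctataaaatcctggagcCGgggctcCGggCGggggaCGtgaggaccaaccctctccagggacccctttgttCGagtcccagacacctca
Nkx6-2 had no island of any of the 6 marks in Setd5+/- cells, and 7.4 kb of H3K27me3 in wild-type cells, from an island of 494 reads. Gsx1, the paralog of Gsx2, was bivalent in both genotypes, with 6.6 kb of H3K27me3 in Setd5+/- and 9.8 kb in wild-type cells, and Nkx6-1, a paralog of Nkx6-2 that specifies ventral progenitors, was H3K27me3-only in both, with 9.5 and 13.7 kb.

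**Figure D3:**
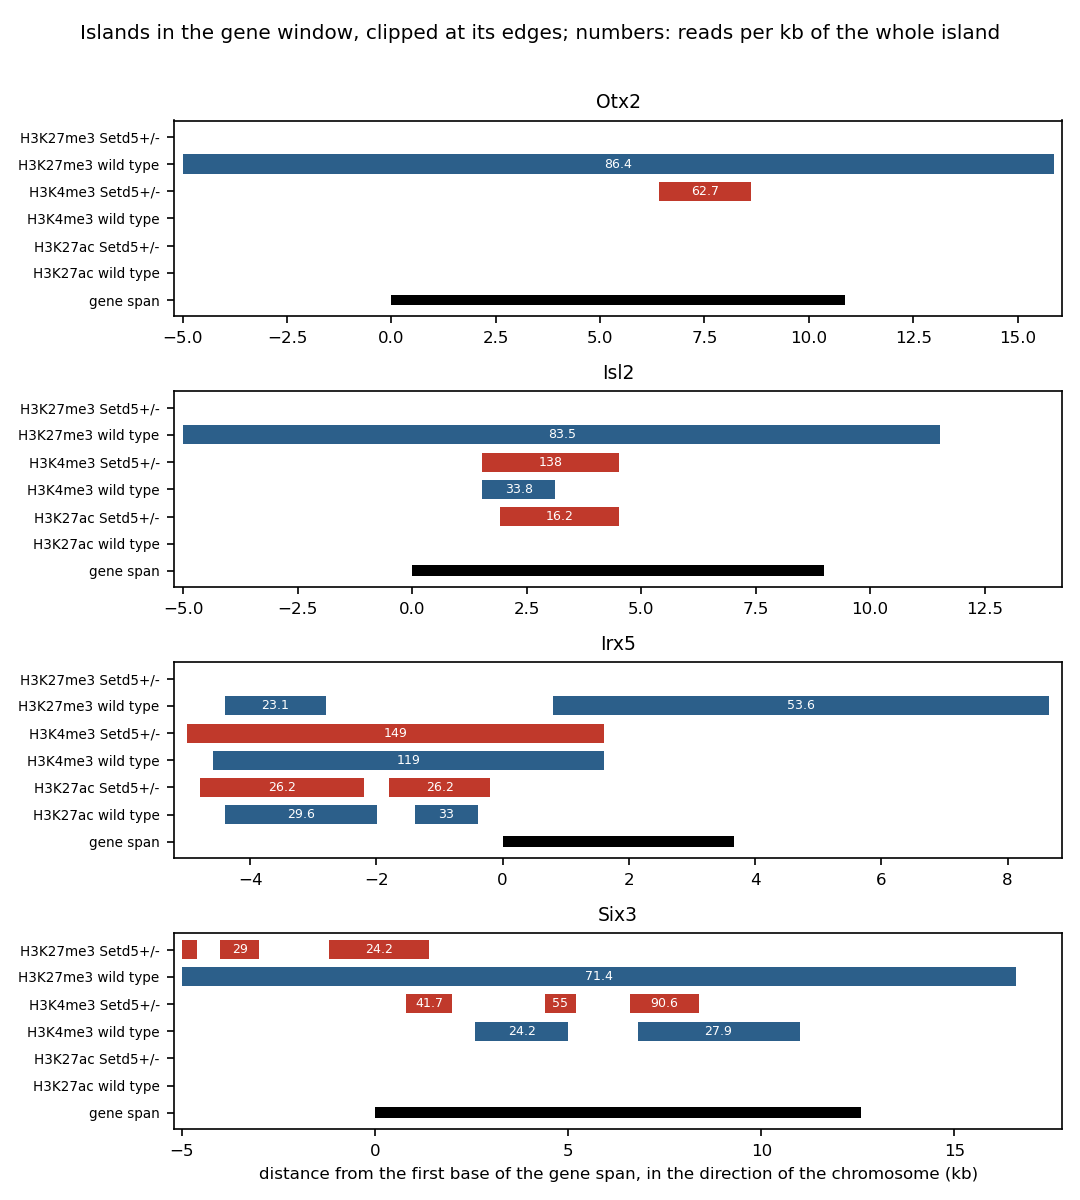
Islands of H3K27me3, H3K4me3 and H3K27ac at Otx2, Isl2, Irx5 and Six3, with distance from the first base of the gene span in kb along the chromosome, Setd5+/- (red) above wild type (blue) for each mark, and reads per kb printed on islands. The H3K27me3 rows of Setd5+/- cells are empty at Otx2, Isl2 and Irx5 and hold 3 short islands at Six3, where wild-type cells had 1 domain at 71.4 reads per kb.

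All 6 Iroquois genes differed in state between genotypes. They code for homeodomain factors that pattern the neural tube, heart and limbs, and lie in clusters of 3, with Irx1, Irx2 and Irx4 on chromosome 13 and Irx3, Irx5 and Irx6 on chromosome 8. H3K27me3 was at 2 of them in Setd5+/- and at all 6 in wild-type cells. Their summed H3K27me3 length was 8.3 kb in Setd5+/- and 64.3 kb in wild-type cells, a ratio of 0.129, the lowest of the 7 families. The genes of a cluster are neighbours and are not independent of each other. On chromosome 8 the windows of Irx3, Irx5 and Irx6 held no H3K27me3 in Setd5+/- cells and 5.7, 9.5 and 11.1 kb in wild-type cells. Irx3 had its H3K27me3 islands in the flanks only, and with flanks of 1 kb it had none in either genotype. H3K4me3 was kept at all 3. Irx5 had the most, 1016 reads (149 reads per kb) in Setd5+/- and 735 reads (119 reads per kb) in wild-type cells over islands that reach into the gene. It was also the only Iroquois gene with H3K27ac, 4.2 kb in Setd5+/- and 3.4 kb in wild-type cells, and with H3K36me3, an island of 4 kb and 79 reads over and past its far end in Setd5+/- cells and none in wild-type cells.

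On chromosome 13 the loss was incomplete. Irx2 had no H3K27me3 in Setd5+/- cells and 11.8 kb in 5 islands in wild-type cells, at 34.7 reads per kb the least dense of the 8 losses. An H3K4me3 island at the low-coordinate end of the span had 72 reads in Setd5+/- and 38 reads in wild-type cells. A second H3K4me3 island of 92 reads past the other end was in wild-type cells alone. The first base of the span lay inside the H3K4me3 island of both genotypes and inside an H3K27me3 island of wild-type cells. The first start in the RefSeq promoter table (chr13:72628570-72628869, plus strand, 25 CG in capitals) lies 4390 bp inside the span, and that stretch was touched by none of the 3 marks in either genotype.
Irx2: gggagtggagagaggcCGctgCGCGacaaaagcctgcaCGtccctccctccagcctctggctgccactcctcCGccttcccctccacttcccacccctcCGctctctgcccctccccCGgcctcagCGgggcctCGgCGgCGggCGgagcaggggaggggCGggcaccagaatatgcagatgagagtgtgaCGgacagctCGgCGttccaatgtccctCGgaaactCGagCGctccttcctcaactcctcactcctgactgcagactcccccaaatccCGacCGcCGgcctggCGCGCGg
Irx1 kept 3.3 kb of H3K27me3 in Setd5+/- cells, against 12.9 kb in wild-type cells, and had an H3K4me3 island of 59 reads in Setd5+/- cells alone. With flanks of 1 kb no H3K27me3 island of Setd5+/- cells reached Irx1. Irx4, a gene of the heart ventricle, kept 5.0 kb against 13.4 kb and had an H3K4me3 island of 68 reads in wild-type cells alone.

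Among the genes with H3K27me3 in both genotypes, Six3 and Barhl1 had the lowest ratios of covered length. Six3, which represses Wnt signalling in the anterior forebrain, had 4.0 kb of H3K27me3 in 3 islands in Setd5+/- cells, at 26.6 reads per kb, and 21.6 kb of its 22.6 kb window in wild-type cells, in 1 island of 2114 reads. Its H3K4me3 covered 3.8 kb at 67.6 reads per kb in Setd5+/- and 6.6 kb at 26.5 reads per kb in wild-type cells. Six2, a gene of nephron progenitors 36.5 kb further along chromosome 17, had 15.3 and 22.3 kb of H3K27me3, and 2 weak H3K4me3 islands of 34 and 38 reads in Setd5+/- cells alone. Six6 of the eye field had 14.2 and 15.0 kb. Barhl1, expressed in hindbrain and inner ear, had 3.0 kb in Setd5+/- and 15.0 kb in wild-type cells. Barhl2, of retina and spinal cord interneurons, had 14.6 kb in each genotype and differed in H3K4me3, with none in Setd5+/- cells and 3.6 kb with 241 reads in wild-type cells. Of the 28 genes with H3K27me3 in both genotypes, 4 had a covered length at least 2-fold lower in Setd5+/- cells (Six3, Irx1, Irx4 and Barhl1), against 29.1% of all genes with the mark in both. None of the 28 was at least 2-fold higher, against 10.6%.

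LIM genes kept the mark more often than they lost it, which was not particular to this family. Among genes marked in wild-type cells, it was kept at 6 of 6 Barhl, Vax and Msx and 3 of 3 sine oculis genes. It was also kept at 4 of 5 NK genes and at 2 of 3 Pitx, Otx and Phox2a genes. Gsx genes kept it at 1 of 2 and Iroquois genes at 2 of 6. Of all protein-coding genes with the mark in wild-type cells, 33.0% lost it. Of 11 LIM genes, 10 had H3K27me3 in Setd5+/- and 11 in wild-type cells. Summed lengths were 202.1 and 244.6 kb, a ratio of 0.826. Lhx4, Lhx9 and Lmx1a lie on chromosome 1, where islands covered more in Setd5+/- cells, and without them the sums were 123.8 and 171.2 kb, a ratio of 0.723. Both were the highest ratios of the 7 families, and the second is below the 0.787 of all genes on the 16 other autosomes. Lhx1, a gene of head organisation and of several neuron types, had 16.5 kb in each genotype, Lhx6 of cortical interneurons 25.6 and 26.8 kb, and Lhx9, a gene of chromosome 1, 28.8 and 29.0 kb. Lhx3 and Lhx4, both needed for motor neurons and the pituitary, had 10.6 against 12.2 kb and 23.6 against 26.2 kb. Lhx5 had 12.3 and 14.1 kb. Isl1 of motor neurons had 18.8 and 21.4 kb, and Lhx8 of basal forebrain cholinergic neurons 15.8 and 21.6 kb. The widest difference was at Lmx1b of serotonergic and dopaminergic neurons, with 24.2 kb in Setd5+/- and 42.0 kb in wild-type cells. Among NK genes, Nkx2-1, the determinant of the medial ganglionic eminence and thyroid, had 10.9 kb in Setd5+/- and 15.0 kb in wild-type cells, Nkx2-4 had 8.2 and 11.3 kb, and Nkx2-9 8.6 and 12.2 kb. No NK gene had H3K4me3 in either genotype. Msx2 and Msx1, targets of BMP signalling, had 15.9 kb in each genotype and 8.3 against 14.1 kb. Vax1 and Vax2 of the ventral forebrain and eye had 9.8 against 15.9 kb and 11.2 against 21.8 kb. Pitx1 of the hindlimb had 18.4 and 21.1 kb. Phox2a of noradrenergic neurons had no H3K27me3 in its window in either genotype, and neither did Otx1 of deep-layer cortical neurons.

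**Figure D4:**
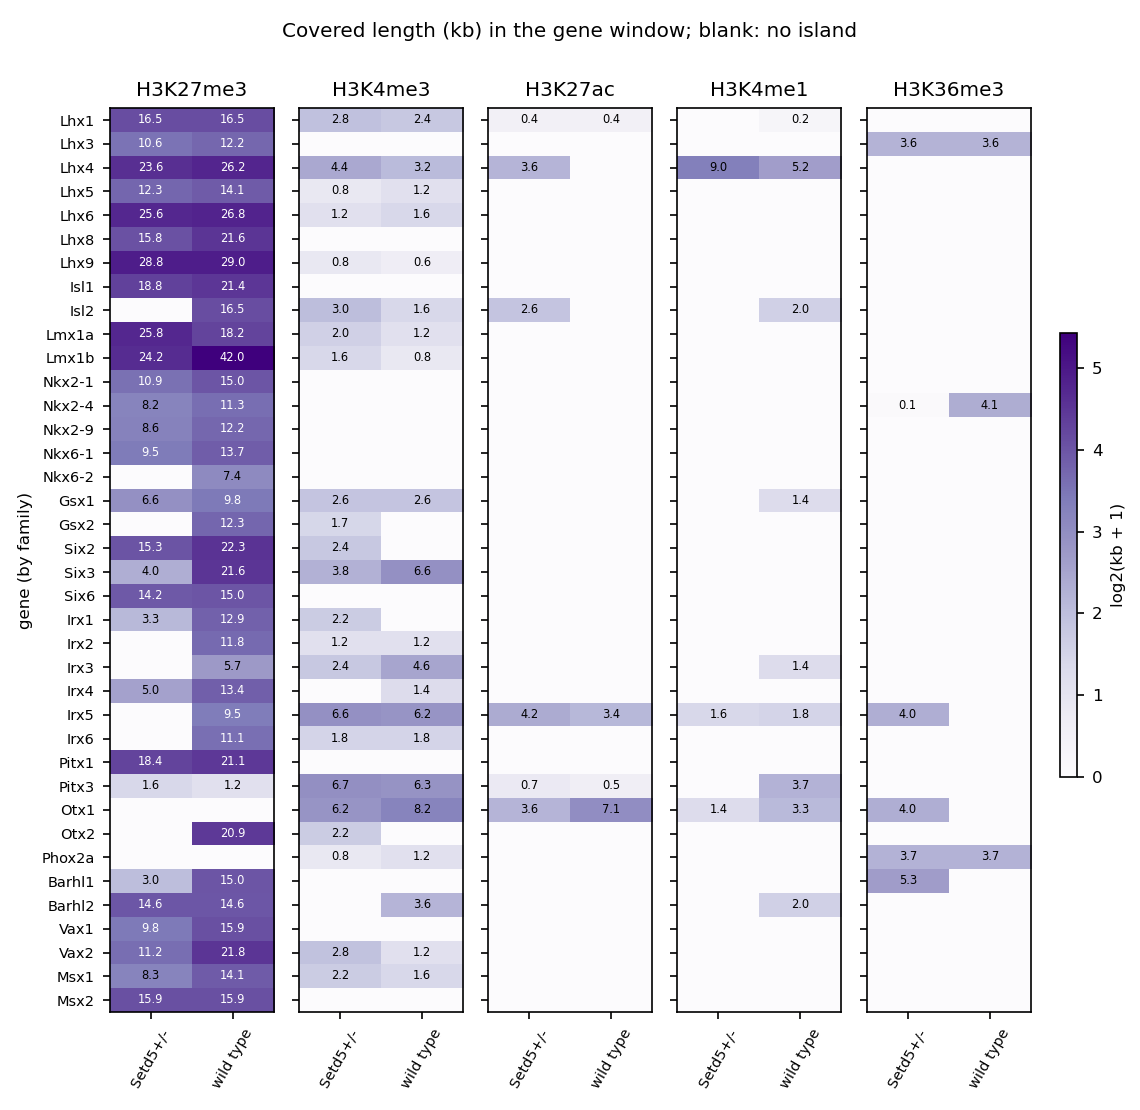
Covered length in kb (printed; shading is log2 of kb plus 1) of 5 marks in the windows of the 38 genes, Setd5+/- left of wild type in each panel; cells without a number have no island. H3K27me3 fills 28 rows in Setd5+/- and 36 in wild type, while H3K27ac fills 6 and 4.

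The islands of genes that kept H3K27me3 were also less dense in Setd5+/- cells. Read density is the reads of all islands touching a window per kb of those islands, and the log2 ratio between genotypes was set to 0 at the median of genes with the mark in both on the 16 other autosomes, which was -0.23 before this. The ratio was below 0 at all 28 genes, with a median of -0.57 and a range of -1.32 at Nkx6-1 to -0.06 at Pitx3. At Pitx3 it compares islands that do not overlap. Other genes of the 16 autosomes had a median of 0.01 and 49.3% below 0. Homeobox regulators started from a higher density, with a median of 68.0 reads per kb in wild-type cells against 31.4 for the other genes. The 160 other genes with a wild-type density between 54.1 and 84.6 reads per kb, the range of the middle 50% of the homeobox regulators, had a median of -0.64 and 97.5% below 0. Other genes with equally dense islands thus had a ratio as low. Within this range of density the mark was lost at 2 of 18 homeobox regulators off chromosome 1 (11.1%) and at 23 of 183 other genes (12.6%), so the shares were close. Below the range it was lost at 4 of 8 homeobox regulators, all Iroquois genes, and at 37.4% of 2323 other genes. Above it the mark was lost at 2 of 7 (Gsx2 and Otx2) and at 12 of 74 other genes. The 8 genes that lost H3K27me3 had wild-type densities from 34.7 to 89.7 reads per kb, inside the range of 27.5 to 111 for the 28 that kept it.

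**Figure D5:**
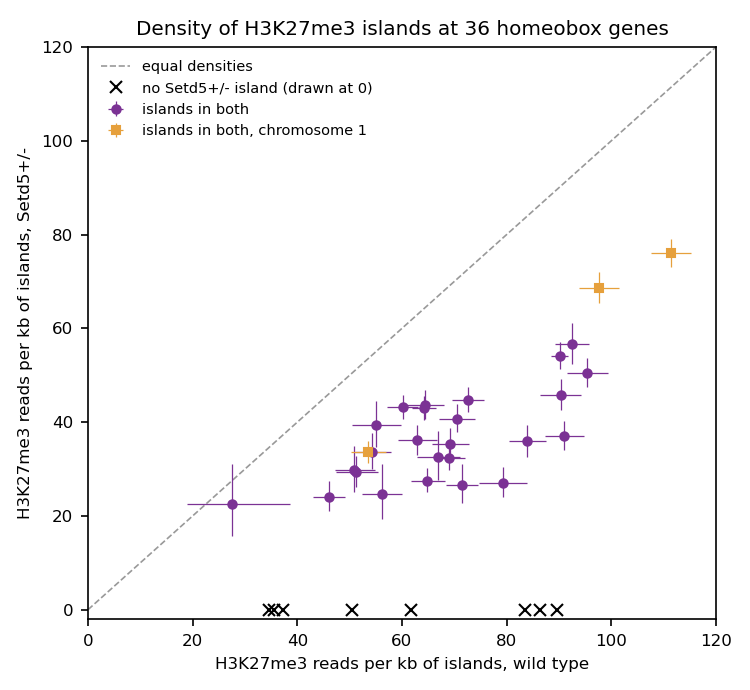
Reads per kb of H3K27me3 islands touching each window, Setd5+/- on the vertical and wild type on the horizontal axis, with exact Poisson 95% intervals as bars (counting error only) for the 28 genes with islands in both. All 28 lie under the line of equal densities; crosses at 0 mark the 8 genes without a Setd5+/- island, whose wild-type densities run from 34.7 to 89.7.

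H3K4me3 was present at 23 of the 38 genes in Setd5+/- and 21 in wild-type cells, against 66.3% and 67.7% of all genes. It was found in Setd5+/- cells alone at 4 genes (Gsx2, Six2, Irx1 and Otx2), against 1.11%, and in wild-type cells alone at 2 (Irx4 and Barhl2), against 2.44%. Under the stricter island threshold the 4 became 10. Summed length was 62.2 kb in Setd5+/- and 59.1 kb in wild-type cells, a ratio of 1.05 that became 0.992 with equal covered length of the lists and 1.54 under the stricter threshold. Density was higher in Setd5+/- cells, relative to the median of all genes, at 16 of the 19 genes with the mark in both, with a median log2 ratio of 0.40. The ratios of 11538 genes on the 16 other autosomes, set to 0 at their median, had 5th and 95th percentiles of -0.48 and 0.48. After Isl2 the largest ratios were 1.31 at Six3 and 1.30 at Vax2, where H3K4me3 had 80.4 reads per kb in Setd5+/- and 31.7 in wild-type cells. Gsx1 had the lowest, -0.55, with 51.9 and 73.8 reads per kb. The 12 genes bivalent in both genotypes had a median of 0.29, against 0.01 for 1105 other bivalent genes of the 16 autosomes. Above 0 were 9 of the 12, against 51.1% of the 1105. Wild-type H3K4me3 density was not matched in these comparisons. Both the 19 and the 12 include Lhx4, Lhx9 and Lmx1a of chromosome 1 (0.80, 0.62 and -0.18), which the comparison genes leave out. The 20 other homeobox genes bivalent in both, on any chromosome, had a median of 0.28.

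H3K27ac lay in 6 windows in Setd5+/- and 4 in wild-type cells, against 45.5% and 47.6% of all genes. It was in Setd5+/- cells alone at 2 genes, against 4.43%, and in wild-type cells alone at 0, against 6.57%. The 2 were Isl2 and Lhx4 on chromosome 1, where 2 islands of 50 and 44 reads lay at the low-coordinate end of the span. Under the stricter threshold the Isl2 island fell out and Lhx4 alone was left. Summed length was 15.2 kb in Setd5+/- and 11.4 kb in wild-type cells, a ratio of 1.33 that was 1.01 without chromosome 1 and 2.09 with flanks of 1 kb. Otx1 had 3.6 kb in Setd5+/- and 7.1 kb in wild-type cells, and Pitx3 and Lhx1 had under 1 kb in each genotype. The H3K27ac islands of Pitx3, Lhx1 and Irx5 lay outside the gene span in each genotype, as did those of Otx1 in Setd5+/- cells. The Pitx3 window also holds part of Elovl3 and Gbf1, and the Lhx1 window part of Aatf. H3K4me1 lay in 3 windows in Setd5+/- and 9 in wild-type cells, against 36.1% and 53.3%. Lhx4, Irx5 and Otx1 had it in both genotypes, and Lhx1, Isl2, Gsx1, Irx3, Pitx3 and Barhl2 in wild-type cells alone. Of all protein-coding genes with H3K4me1 in wild-type cells, 37.4% had none in Setd5+/- cells. H3K4me1 islands covered 32.7 Mb in Setd5+/- and 54.0 Mb in wild-type cells over the 16 autosomes other than 1, 4 and 15.

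Marks of H3K36 and SETD5 itself were scarce at these genes. H3K36me3 touched 6 windows in Setd5+/- and 3 in wild-type cells, against 42.0% and 40.7% of all genes. At Lhx3, Nkx2-4, Barhl1 and Phox2a the islands lay beyond the gene or overlapped it by at most 320 bp, while at Otx1 an island of 4 kb with 85 reads covered part of the span in Setd5+/- cells alone. H3K36me2 touched Lhx4 (16.6 kb of the window) and Lhx9 (3.4 kb), both on chromosome 1, in Setd5+/- cells and no window in wild-type cells, against 6.11% and 5.31% of genes. SETD5-V5 touched 1 of the 38 windows, against 26.4% of all protein-coding genes. This island, at Phox2a, began 6488 bp after the first base of the span, beyond the gene and on the side of its neighbour Inppl1. No SETD5-V5 island touched any of the 12 genes that differed in state.

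Promoters of 31 of the 38 genes were in the RefSeq table, with Lhx5, Irx1, Irx5, Irx6, Pitx1, Otx1 and Vax2 not matched. The outermost start listed there was read for each, and for 7 of the 31 (Isl2, Lhx4, Lhx9, Lmx1a, Six3, Irx2 and Barhl1) it lies over 1 kb inside the annotated span, so other starts of these genes were not read. H3K27me3 touched 16 of the listed promoters in Setd5+/- and 25 in wild-type cells, against 2.72% and 3.86% of the 17492 protein-coding genes in the table. It was in wild-type cells alone at 9 of the 25, against 48.7% of all genes marked at the promoter in wild-type cells, so the share was not above the background. The 9 marked in wild-type cells alone were those of Isl2, Gsx2, Otx2 and Nkx6-2 and of 5 genes that kept the mark elsewhere in the window (Isl1, Nkx2-4, Nkx2-9, Nkx6-1 and Six3). The first base of the Six3 span lay inside an H3K27me3 island in both genotypes. H3K4me3 touched 8 promoters in Setd5+/- and 9 in wild-type cells, against 55.9% and 57.0%. Lhx6, Lhx9, Lmx1a and Lmx1b had bivalent windows in both genotypes, but H3K4me3 touched their listed promoters in neither. The median number of CG in 300 bases was 20 over the 31 promoters, 20 over the 6 whose genes lost H3K27me3 and 19.5 over the 24 whose genes kept it. TAATTA was found in 3 of the 31, Otx2, Barhl1 and Msx2.

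The homeobox genes outside this set also had less H3K27me3 in Setd5+/- cells. Of those listed, 101 were found in the annotation (Drgx was not), and 56 had H3K27me3 in their window in Setd5+/- and 68 in wild-type cells. The mark was in Setd5+/- cells alone at 4 and in wild-type cells alone at 16, against 3.58% and 5.62% of all protein-coding genes. The 16 are 23.5% of the 68 with the mark in wild-type cells. That share is not above the 33.0% of all protein-coding genes with the mark there. Summed lengths were 589.4 and 913.6 kb, a ratio of 0.645, against 0.719 over all protein-coding genes. The largest differences in the direction of less H3K27me3 were at Pax7 on chromosome 4, a gene of muscle stem cells and dorsal neural tube, with 0 kb in Setd5+/- and 16.2 kb in wild-type cells, at En2 of the midbrain and hindbrain with 0 and 16.1 kb, and at Dlx1 of interneurons with 0 and 15.9 kb. In the other direction they were at Pbx3, with 18.4 kb in Setd5+/- and 0 kb in wild-type cells, and at Pax3 (96.5 and 94.1 kb) and Gbx2 (1.8 and 0 kb) on chromosome 1.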

How the data were processed

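ChIP-seq was read from 13 lists of enriched islands, with the 3 inputs not analysed here. The submitters' processing notes name FastQC, Bowtie2 2.2.3, GRCm38 (mm10) and SICER 1.1. Per the file headers, SICER ran with windows of 800 bp, gaps of 2400 bp and an FDR of 0.01 for H3K36me2, H3K36me3 and SETD5-V5. No settings are given for the other lists, where widths come in steps of 200 bp. The deposited whole number per island was taken as the authors' read count, from its values. Use of inputs, normalization and library totals were not given in the sources used here, and a gene without an island may carry the mark below the caller's threshold. Counts carry exact Poisson 95% intervals for counting error only, since PCR reads are not independent molecules.

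A gene counted as marked with 1 bp of island in its span plus 5 kb, by RefSeq GRCm38. Python 3.11.15, numpy 2.4.6, pandas 2.3.3, scipy 1.17.1 and matplotlib 3.10.9 were used, and the overlap code was tested on simulated losses. Genes, lists and thresholds were chosen with earlier results of these data known. All 38 genes are named; of other homeobox genes, the 3 largest falls and 3 largest rises in H3K27me3. Promoters are printed for the 6 genes with the longest complete H3K27me3 loss where RefSeq lists one, and the inner Otx2 start was added after its values were seen. Limits on wild-type coverage and density for comparison genes were also set then. Alternatives changed the flanks, overlap, island threshold, covered length, chromosomes and state rules.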

Additional observations from a re-analysis of the deposited data

How the results depend on the processing

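With 1 library per group no replicate could be left out, and no paired analysis was possible because no group has a replicate. The 8 genes that lost H3K27me3 were the same under the stricter threshold (the 25% of islands with fewest reads per kb left out), both settings of equal covered length, 1 kb of required cover, and without chromosomes 1, 4 and 15. These settings only remove islands, short overlaps or genes, so none could restore the mark to a lost gene in Setd5+/- cells. A gene could leave the 8 only by losing its wild-type islands, and none of the 8 lies on chromosome 1, 4 or 15. With 10 kb flanks Otx1 was added, and with 1 kb flanks Irx3 dropped out and Irx1 came in. The H3K27me3 length ratio ranged over these 7 settings between 0.566 and 0.642. With 1 kb flanks, unmarked genes in Setd5+/- cells numbered 2, active genes in wild type 4, H3K27me3 was in Setd5+/- alone at 1 gene (Pitx3), and the H3K27ac length ratio was 2.09. With 10 kb flanks 1 gene was active in wild type. With 1 kb of required cover, 2 genes were unmarked in Setd5+/- cells and H3K4me3 was in wild type alone at 4. Under the stricter threshold 2 genes were unmarked in Setd5+/- cells, and wild-type counts became 27 H3K27me3-only, 9 bivalent, 1 active and 1 unmarked. H3K4me3 and H3K27ac were then in Setd5+/- cells alone at 10 and 1, and the H3K4me3 length ratio was 1.54. With equal covered length the H3K4me3 length ratio turned to 0.992, also with equality set on the 16 autosomes, and H3K27ac was in Setd5+/- alone at 1 gene in the first setting and without chromosomes 1, 4 and 15. Read at the outermost listed promoters, a choice made after seeing the data, H3K4me3 was in Setd5+/- alone at 0 and in wild type alone at 1, and H3K27ac in Setd5+/- alone at 1. The cause of these shifts was not tested. Counting H3K27ac as active, or asking the islands to overlap for bivalency, moved no count past 1.5 times.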
